A study of Sus scrofa with 61 samples.

Results

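Transcript levels of 8 interferon-related genes were followed in the longissimus muscle of 61 pig fetuses: the guanylate-binding proteins GBP1 and GBP2, the transcription factor IRF1, and the antiviral genes MX1, MX2, ISG15, IFIT3 and OAS1. A probe was assigned to them where the name column of the scanner files, or the gene lists published with the array data, gave one of these symbols. This found 26 of the 60305 probes that were not controls, and 25 of them passed the filter on dim probes, which kept 42436 probes in all. The 8 genes are among 12394 gene symbols carried by the probes that were not controls. MX1 had 7 probes, of which 6 were kept, IRF1 had 4, GBP1, MX2 and IFIT3 had 3 each, and GBP2, ISG15 and OAS1 had 2 each.

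The fetuses were purebred Large White (LW), purebred Meishan (MS) or their crosses, LWMS (MS dam, LW sire) and MSLW (LW dam, MS sire), taken at day 90 or day 110 of gestation. At day 90 there were 8 fetuses of each genotype, and at day 110 there were 9 LW, 8 LWMS, 5 MSLW and 7 MS. All were males delivered by caesarean section, untreated, and each was hybridised alone to a 1-colour 60-base oligonucleotide array. Sows of each breed received mixed semen of both breeds, so that LW and MSLW fetuses shared LW sows and MS and LWMS fetuses shared MS sows. The sow of a given fetus is not in the labels, so littermates count here as separate fetuses and the p-values do not allow for their likeness.

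Interferons are signalling proteins that cells release when they sense viral or other foreign nucleic acid. Their receptors activate transcription factors, which switch on a common set of genes, many with antiviral functions; type I interferons act through complexes that drive genes such as MX1, ISG15, IFIT3 and OAS1, while interferon-gamma acts in part through IRF1 and is the classical inducer of the guanylate-binding proteins. Several of these genes have a low steady level in tissues with no infection.

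Since probes of a gene can read different stretches of its transcript, the probes on which the results turn are shown first. The 3 GBP1 probes begin at base 818, base 2045 and base 2914 of the transcript record against which they were designed. The first is printed whole, the second by its first 30 bases, and the third by 30 bases of a run of 41 that it shares with the probe of GBP3, with a hexamer of the polyadenylation-signal type (AATAAA) in capitals.
GBP1 base 818: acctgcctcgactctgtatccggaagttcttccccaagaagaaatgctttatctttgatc
GBP1 base 2045: acattggtattacacaaagaactcgcacat
GBP1 base 2914: ttaagagtattttcgagctggaAATAAAct
AATAAA, searched on the printed strand only, was present in 7 of the 26 member probes and in 11.5% of all kept probes, and its presence in a 60-base probe is a description and not evidence of use. The OAS1 probes at base 676 and base 871 do not overlap, and are shown because they split the fetuses in the same way.
OAS1 base 676: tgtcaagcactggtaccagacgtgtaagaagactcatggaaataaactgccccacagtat
OAS1 base 871: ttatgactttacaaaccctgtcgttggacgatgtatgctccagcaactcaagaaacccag
The ISG15 probes share the 43 bases in capitals, and therefore count as repeated readings of 1 stretch.
ISG15 first probe: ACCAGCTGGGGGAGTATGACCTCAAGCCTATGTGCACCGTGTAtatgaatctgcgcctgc
ISG15 second probe: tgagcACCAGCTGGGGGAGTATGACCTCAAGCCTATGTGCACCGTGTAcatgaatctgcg
Likewise, the GBP2 probes share 56 bases, 3 of the MX1 probes overlap each other by 45 to 57 bases, and 2 of the IRF1 probes have identical sequences. Below, the main probe of a gene is its kept probe with the highest mean, which is the base 2914 probe for GBP1 and the base 871 probe for OAS1.

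Between 34346 and 45683 probes per array were well above background by the mark of the scanner software. The arrays sat on 8 slides, each with 6 to 8 of the 8 groups, and were scanned on 1 day. The 7 measured skeletal muscle markers summed to between 20.79 and 20.98 (log2) in every fetus. This sum of intensities is weighted to the brightest markers and does not show that muscle content was constant. Averaged over genotypes, 6 of the 7 changed with age at an adjusted p under 1%, 3 higher and 3 lower. The changes ran from -2.57 (MYH3) to 0.49 (TNNT3), and 72.3% of all kept probes changed. Markers of leukocytes and macrophages, a possible source of interferon-related transcripts, were measured for 8 genes and summed to 12.7 to 13.16 at day 90 and 12.37 to 13.02 at day 110; CD3E, which defines T cells, was not kept. In bulk tissue, fewer cells of a type and less RNA per cell cannot be told apart. Values below are quantile-normalized log2 intensities, differences are log2 differences from limma ± SE, and a difference was called at a Benjamini-Hochberg adjusted p under 1% over all 42436 kept probes.

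The largest group of calls was at day 90 between the purebreds. Of the 25 member probes, 13 were higher in MS than in LW and none was lower, against 6.23% of all kept probes called higher (12.8% called in either direction). The median difference of the 25 probes was 1.22, against 0 for all kept probes. By main probe, GBP1, MX1, ISG15 and IRF1 rose from LW to MS, whereas GBP2, MX2, IFIT3 and OAS1 did not pass the test. At day 110 the same comparison called 3 of 25 probes (1 higher and 2 lower), when 29% of all kept probes were called, and no main probe was among the 3.

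**Figure D1:**
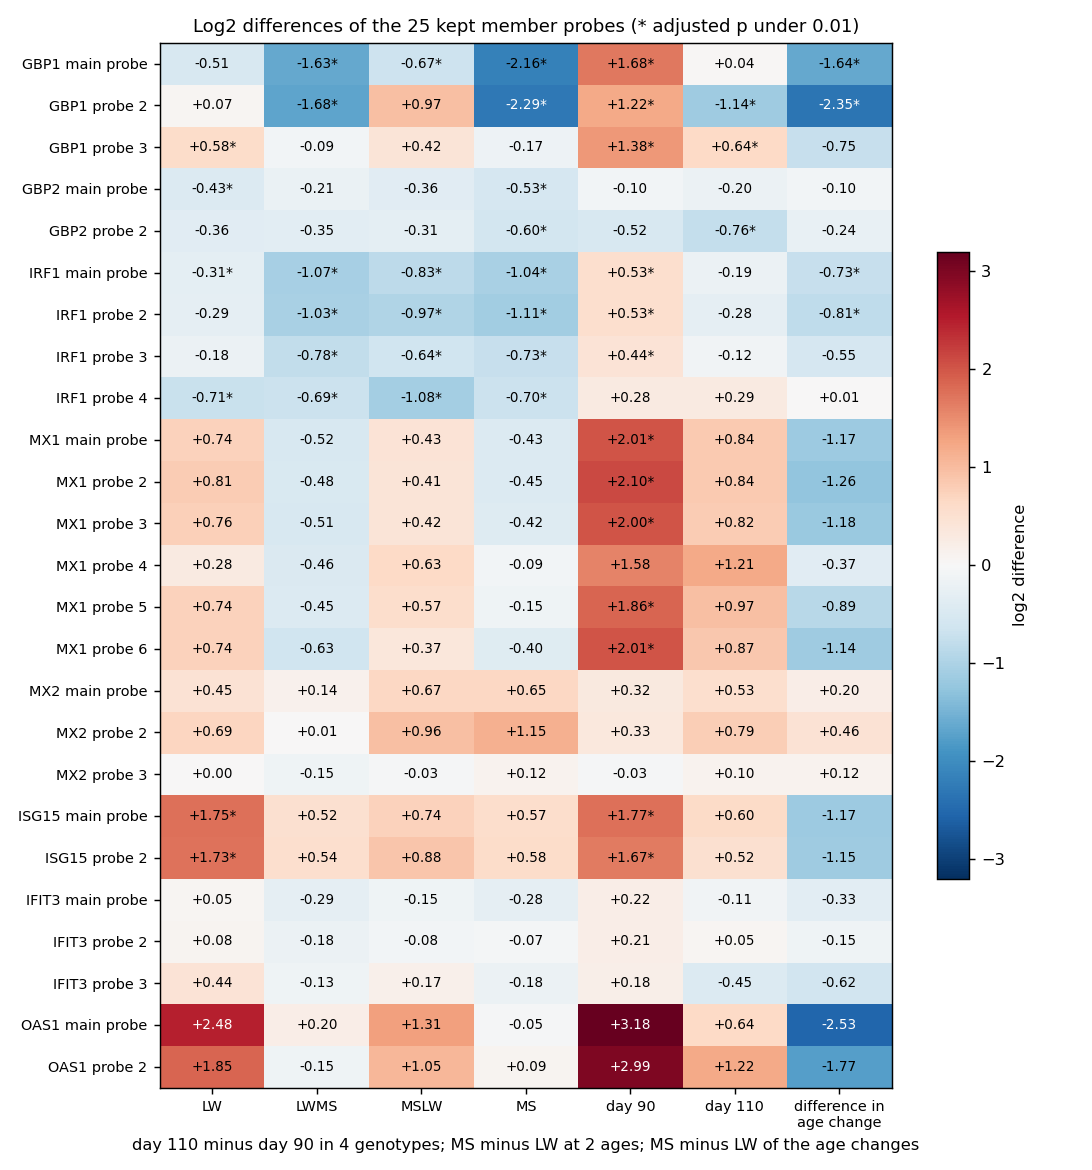
Log2 differences of the 25 kept member probes (rows, grouped by gene) in the comparisons of the study (columns), with colour from lower (blue) to higher (red) and an asterisk on each difference called at an adjusted p under 1%. In the column of MS against LW at day 90, 13 of 25 probes carry the asterisk, all of them higher in MS.

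GBP1, a large GTPase induced by interferons that acts against intracellular pathogens, had the most ordered levels. At day 90 its main probe read 6.03, 6.30 and 6.42 (lowest, median and highest) in LW, 7.03, 7.19 and 7.51 in LWMS, 6.69, 7.16 and 7.43 in MSLW, and 7.74, 7.97 and 8.36 in MS. The LW fetuses, the crosses and the MS fetuses did not overlap. The order of the means was LW, then the crosses, then MS, and all neighbours in it differed except the crosses from each other. MS exceeded LW by 1.68 ± 0.19 (adjusted p = 2.34e-10), a 3.2-fold difference, and within the 8 slides the difference ranged from 1.41 to 2.34. LWMS exceeded LW by 0.92 ± 0.19 (adjusted p = 0.000711) and MSLW exceeded LW by 0.83 ± 0.19 (adjusted p = 0.00363). MS in turn exceeded LWMS by 0.76 and MSLW by 0.85 (adjusted p = 0.00977 and 0.00204). The difference between MSLW and LWMS was -0.09, with a 95% interval of -0.46 to 0.27. Over all 25 member probes, these comparisons called 2 for LWMS against LW (2.53% of all kept probes), 3 for MSLW against LW (1.83%), 2 for MS against LWMS (1.48%) and 2 for MS against MSLW (2.06%), with the higher level in every case in the genotype named first.

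At day 110 the order was gone. The main GBP1 probe read 4.85, 5.72 and 6.53 in LW, 4.73, 5.62 and 6.06 in LWMS and 5.11, 5.82 and 6.56 in MS, of which 6 of 7 were well above background. The 5 MSLW fetuses read 5.93, 6.03, 6.34, 6.87 and 7.08. All 4 genotypes overlapped, and no pair of them was called. Over all 25 member probes, 1 was called for LWMS against LW (9.05% of all kept probes), none by limma for MSLW against LW (4.98%, with 3 member probes at an unadjusted p under 0.05), 1 for MS against LWMS (4.3%) and 1 for MS against MSLW (4.06%), each of them another GBP1 probe. MS and LW differed by 0.04, with an interval of -0.33 to 0.40, which leaves out the difference of day 90. MSLW exceeded LWMS by 0.87 ± 0.21, short of the threshold (adjusted p = 0.0129).

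From day 90 to day 110 the main probe of GBP1 fell by 2.16 in MS (SE 0.19, adjusted p = 8.01e-15) and by 1.63 in LWMS (SE 0.19, adjusted p = 3.84e-11), in each case without overlap between the ages. In MSLW it fell by 0.67 (SE 0.21, adjusted p = 0.00635), and in LW the change of -0.51 ± 0.18 did not pass (adjusted p = 0.0136). The fetuses of MS dams were thus those with the larger changes. The change was 1.64 ± 0.26 more negative in MS than in LW (adjusted p = 1.86e-05). In a model with separate terms for dam and sire breed, the dam breed by age term was -1.28 ± 0.19 (adjusted p = 1.29e-05), whereas the sire breed by age term was -0.35 ± 0.19 (adjusted p = 0.413). That the terms for dam and sire differ was not tested. With normexp background correction and an offset of 50, the mean age change was -0.73 in place of -1.24, the change in MS -1.34, the change in LWMS -0.91 and the dam term -0.78, and each of these still passed. The MSLW call was lost when any 1 of 7 MSLW fetuses was left out (replicates 1, 4 or 5 of day 110, or 3, 5, 6 or 7 of day 90), with values of -0.54 to -0.65.

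**Figure D2:**
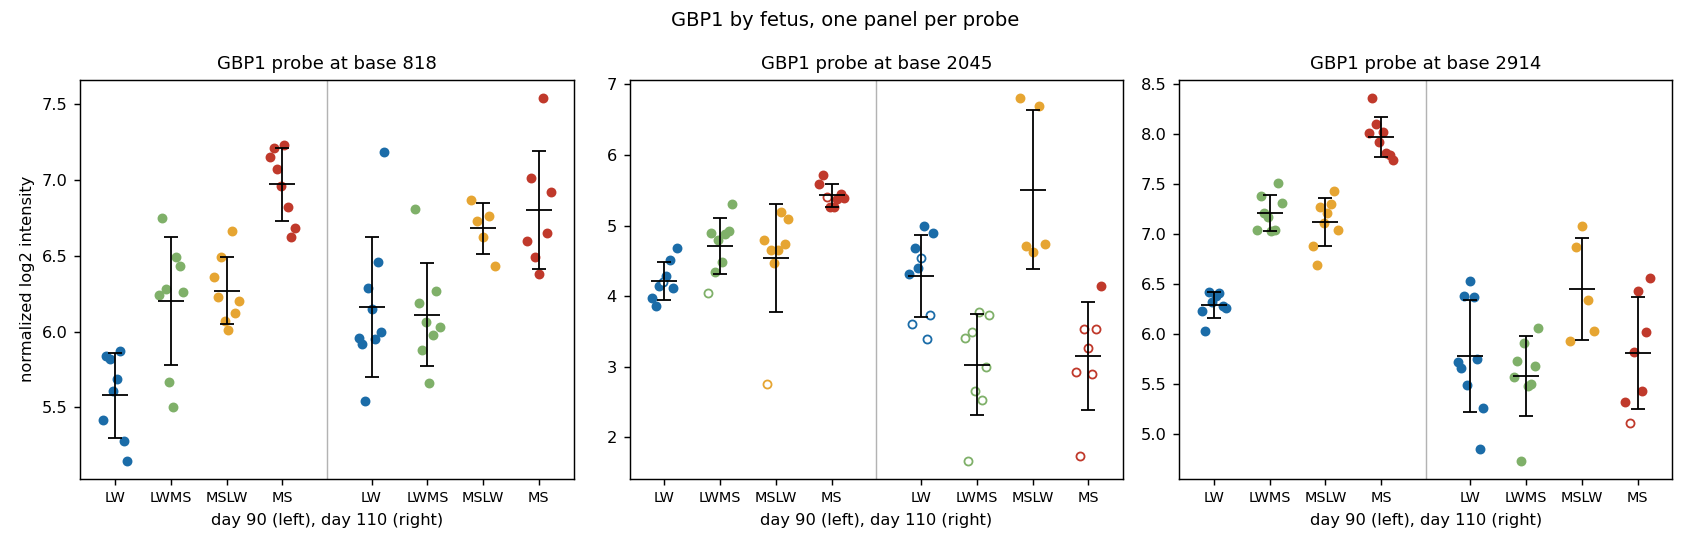
Normalized log2 intensity of GBP1 in each fetus (points) by genotype and gestational day, with 1 panel for each of its 3 probes; bars are the mean ± SD and open circles are fetuses not well above background. With the base 2914 probe, LW, the crosses and MS form 3 separate steps at day 90 that overlap at day 110, whereas with the base 818 probe the mean of MS is above that of LW at both ages.

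The GBP1 probes agreed at day 90 and parted at day 110. All 3 exceeded their LW level in MS fetuses of day 90, by 1.38 ± 0.17 at base 818 (adjusted p = 2.79e-09) and by 1.22 ± 0.31 at base 2045 (adjusted p = 0.00225). These sizes depended on the signal used. With normexp they were 0.80 and 0.41, and the base 2045 difference was 0.64 with the median spot signal and 0.67 with the deposited table, all past the threshold. At day 110 the base 818 probe was higher in MS by 0.64 ± 0.17 (adjusted p = 0.00175), with 5.54, 6.0 and 7.18 in LW and 6.38, 6.65 and 7.54 in MS, and it rose with age in LW by 0.58 ± 0.16 (adjusted p = 0.002). LW and MS overlapped there. Its age change in MS was -0.17, with an interval of -0.51 to 0.17, against the 2.16 by which the base 2914 probe fell. For the base 818 probe, the age change of MS less that of LW was -0.75 (adjusted p = 0.0267). Its dam breed by age term was -0.63 (adjusted p = 0.0136), and neither passed. Without MS replicate 5 of day 110, the day 110 difference of the base 818 probe was 0.51 (adjusted p = 0.0124), and with normexp it was 0.39 (adjusted p = 0.00232).

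The base 2045 probe was the dimmest of the 3, and at day 110 it was well above background in 5 of 9 LW, 0 of 8 LWMS, 5 of 5 MSLW and 1 of 7 MS fetuses. The MSLW fetuses read 4.62, 4.71, 4.74, 6.69 and 6.81, and the highest value in LWMS was 3.77. With the background-corrected signal, MSLW was at least 2.6-fold higher than LWMS at day 110 (adjusted p = 1.99e-06), the only call among the 25 member probes in that comparison, which called 0.912% of all kept probes. That bound holds for this signal only: the measured log2 difference was 2.48 with it, 1.02 with the median spot signal, 0.97 with the deposited table and 0.72 with normexp, past the threshold each time. Of the 6 endothelial markers, CLDN5 was also higher in MSLW (0.74 ± 0.13, adjusted p = 0.000114), and the summed endothelial level was 14.95 to 15.34 in MSLW and 14.51 to 14.89 in LWMS, without overlap. Its part in the GBP1 difference was not tested. The base 2914 probe became the second call with 75th percentile scaling (0.91, adjusted p = 0.0051), with the slide as a block (0.89, adjusted p = 0.00763), or without any 1 of 6 fetuses of day 110 (MSLW replicate 1 or 5, LW replicate 5 or 8, MS replicate 7 or LWMS replicate 8). At day 90 no member probe was called by limma between the crosses, nor had any an unadjusted p under 0.05, against 0.5% of all kept probes called, and the differences ranged from -0.41 to 0.46. The difference in age change between the crosses was called for the base 2045 probe alone (2.65 ± 0.46, adjusted p = 0.00278), with 0.033% of all kept probes called. In LWMS the base 2045 probe was at least 1.49-fold lower at day 110 than at day 90 with the background-corrected signal, where the measured difference was -1.68, against -0.60, -0.54 and -0.35 with the median spot signal, the deposited table and normexp. Its measured difference between MS and LW at day 110 (-1.14, adjusted p = 0.00231) was -0.36, -0.31 and -0.21 and no longer passed with the median spot signal, the deposited table and normexp, and was -0.90 (adjusted p = 0.0166) without MS replicate 2.

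Other guanylate-binding proteins on the array bear on what these probes read. The GBP3 probe, with its 41 bases in common with the base 2914 probe, gave 1.64 ± 0.17 for MS against LW at day 90 (adjusted p = 3.72e-11), -0.08 at day 110 and -1.71 ± 0.24 for the difference in age change (adjusted p = 1.72e-06). After removal of group and slide means its values followed the main GBP1 probe with r = 0.775 over 61 arrays, the closest of any other gene symbol. Signal from the GBP1 and GBP3 transcripts cannot be told apart in these 2 probes. The kept GBP4 probes opposed each other at day 90, at -1.21 ± 0.21 (adjusted p = 1.2e-05) and 1.64 ± 0.40 (adjusted p = 0.00182), and the first of them was also lower in MS at day 110, by -1.86 ± 0.21 (adjusted p = 2.65e-10).

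GBP2, next to GBP1 on the same chromosome in the RefSeq gene table of the pig, did not follow it. Its main probe had medians of 8.97 in LW, 8.81 in LWMS, 8.88 in MSLW and 8.79 in MS at day 90, and all 4 genotypes overlapped, with fetuses between 8.51 and 9.20. At day 110 they lay between 7.78 and 9.31, and the genotypes overlapped again. MS and LW differed by -0.10 at day 90, with an interval of -0.34 to 0.13. It fell with age, averaged over genotypes, by 0.38 (SE 0.06, adjusted p = 1.45e-07), and among single genotypes the fall passed the test in MS (-0.53 ± 0.12, adjusted p = 0.00016) and in LW (-0.43 ± 0.12, adjusted p = 0.00123). At day 110 the other GBP2 probe differed between MS and LW by -0.76 (adjusted p = 0.000242), where the main probe differed by -0.20 (adjusted p = 0.173). These probes share 38 bases with a probe of LOC100523668 that was not kept, so their readings are uncertain as to the gene.

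IRF1, a transcription factor that interferon-gamma induces and that drives several of the other genes here, was lowest in LW at day 90. Its main probe read 7.68, 7.98 and 8.27 in LW and 8.22, 8.48 and 8.82 in MS, with an overlap at the edges only. The crosses lay at 8.21, 8.43 and 8.69 (LWMS) and 8.11, 8.27 and 8.80 (MSLW). MS exceeded LW by 0.53 ± 0.10 (adjusted p = 6.89e-05), a 1.45-fold difference that was positive in all 8 slides (0.13 to 0.85). LWMS exceeded LW by 0.45 and MSLW by 0.41 (adjusted p = 0.00337 and 0.00972), whereas MS and the crosses differed by at most 0.12 and were not called. With the main probe, only the differences from LW were called in the order of levels at day 90. The crosses were not called against LW with the other 3 probes, that of identical sequence included. Those gave 0.01 to 0.43 for LWMS (lowest adjusted p = 0.0245) and 0.18 to 0.46 for MSLW (lowest adjusted p = 0.019).

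IRF1 then fell in every genotype. At day 110 the main probe read 7.47, 7.64 and 7.87 in LW, 7.01, 7.33 and 7.78 in LWMS and 7.28, 7.42 and 7.79 in MS, and 7.36, 7.41, 7.54, 7.6 and 7.88 in the MSLW fetuses. The ages overlapped in LW and in no other genotype. The main probe changed by -0.31 ± 0.10 in LW (adjusted p = 0.00585), -1.07 ± 0.10 in LWMS (adjusted p = 1.17e-13), -0.83 ± 0.12 in MSLW (adjusted p = 1.69e-08) and -1.04 ± 0.11 in MS (adjusted p = 8.06e-13). The fall was 0.73 ± 0.15 larger in MS than in LW (adjusted p = 0.000447), and the dam breed by age term was -0.51 ± 0.11 (adjusted p = 0.002). This dam term was called for the main probe only. The other 3 probes, including that of identical sequence, gave -0.46 to 0.19 (lowest adjusted p = 0.0198). At day 110 no pair of genotypes was called. The LW call was lost when any 1 of 6 LW fetuses was left out (day 90 replicates 2, 5 or 8, day 110 replicates 2, 3 or 8), with values of -0.27 to -0.31. The IRF1 probe designed on another record fell by 0.80 on average but gave 0.01 for the difference in age change (adjusted p = 0.985). The excess in MS was called with 2 of the 4 probes, and these have identical sequences.

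Averaged over genotypes, 11 of the 25 member probes changed with age, 3 higher and 8 lower, against 72.3% of all kept probes (37.3% higher and 35% lower). The share of members was below that background. Within genotypes, 6 of 25 were called in LW (45.3% of all kept probes), 6 in LWMS (50.9%), 5 in MSLW (44.6%) and 8 in MS (56.7%). The age change of MS less that of LW was called for 4 of 25, all more negative in MS, against 3.39% called lower (5.95% in all); these were the base 2914 and base 2045 probes of GBP1 and the 2 IRF1 probes of identical sequence. The dam breed by age term was called for 3 of 25, all lower (1.89% called lower, 3.05% in all), and the sire breed by age term for 0 of 25 (0.462%), with limma and with unmoderated variances alike. At an unadjusted p under 0.05 the sire term picked 2 probes, the IRF1 probes of identical sequence.

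Markers of other cell types moved with age as well. All 5 fibroblast markers fell on average, with a list median of -1.44. Of the 6 endothelial markers 4 fell (list median -1.08), VWF rose by 1.29 ± 0.10 (adjusted p = 2.87e-17) and TEK did not pass. Of the 8 leukocyte markers 4 fell, AIF1, CSF1R, TYROBP and CD14, LYZ rose, and PTPRC, CD68 and CD163 did not pass. The age change of MS less that of LW was called for 4 of 5 fibroblast markers, all lower, and for none of the leukocyte or endothelial markers (5.95% of all kept probes). The summed fibroblast level at day 110 was 16.2 to 16.58 in MS and 16.84 to 17.53 in LW. The dam breed by age term was called for the endothelial CLDN5 (-0.66 ± 0.11, adjusted p = 0.000105) and for 2 of 5 fibroblast markers, all lower. Their part in the falls of the main probes of GBP1, GBP2 and IRF1 was not tested. At day 90 GBP1, MX1, ISG15 and IRF1 were higher in MS. There 0 of 8 leukocyte and 0 of 5 fibroblast markers were called by limma between MS and LW (1 and 2 at an unadjusted p under 0.05). Of all kept probes 12.8% were called, so 0 calls in lists this short do not show that cell content was alike. The summed leukocyte level was 12.7 to 13.16 in LW and 12.73 to 13.07 in MS. Markers of other types did differ there: the endothelial KDR (-0.71, adjusted p = 0.000883), the adipocyte FABP4 (-0.78, adjusted p = 0.000564) and the muscle gene TNNT3 (-0.38, adjusted p = 3.44e-07) were lower in MS, and the muscle gene CKM was higher (0.23, adjusted p = 0.00394). The summed adipocyte level was 12.92 to 13.8 in MS and 13.69 to 14.77 in LW. Their part in the breed difference of the members was not tested.

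MX1 encodes a dynamin-like GTPase that blocks viral replication and is a standard readout of type I interferon. At day 90 its main probe read 8.07, 8.60 and 9.30 in LW, 8.85, 9.45 and 10.29 in LWMS, 8.57, 9.55 and 10.34 in MSLW, and 9.54, 10.40 and 12.93 in MS. LW and MS did not overlap, and the crosses overlapped with both. MS exceeded LW by 2.01 ± 0.40 (adjusted p = 0.000123), a 4.03-fold difference, with a positive value in all 8 slides (0.70 to 3.93). The crosses differed neither from LW nor from MS at the threshold. Of the 6 kept MX1 probes, 5 were called, between 1.86 and 2.10, and the dim base 1934 probe gave 1.58 (adjusted p = 0.0171). The MX1 probe that was not kept was well above background in 6 of 8 MS and 0 of 8 LW fetuses at day 90. With LW set to no less than the lowest signal well above background, the difference was 2.41-fold with the background-corrected signal.

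At day 110 the main MX1 probe read 8.18, 9.11 and 11.30 in LW, 7.86, 8.84 and 10.22 in LWMS and 9.54, 10.04 and 11.58 in MS, and 9.09, 9.12, 9.86, 10.48 and 11 in the 5 MSLW fetuses. LW and MS overlapped, since the highest LW fetuses lay near the top of MS. The difference was 0.84 ± 0.41 (adjusted p = 0.0933), and no MX1 probe changed with age in any genotype. The 4 fetuses that lay highest for ISG15 were left out together, a choice made after the values had been seen. They were MS replicate 2 of day 90, and LW replicates 5 and 6 and MS replicate 4 of day 110. For MX1, MS replicate 5 of day 90 (11.44) lay above both LW fetuses (11.30 and 11.22) and was kept. At day 110 the omission took out 2 high LW fetuses and 1 high MS fetus, a choice that by itself lowers LW more. The values without them are therefore a description and no test of the breeds. The omission moved the day 110 difference of MX1 to 1.15 (adjusted p = 0.00707). The count of member probes called there went from 3 to 6, of which 4 were MX1 probes. At day 90 the count was 12 with these fetuses left out, and the MX1 difference was 1.69 (adjusted p = 6.52e-05).

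ISG15 encodes a ubiquitin-like protein that is attached to other proteins after interferon treatment. At day 90 it read 8.18, 8.62 and 9.19 in LW, 8.48, 9.38 and 10.18 in LWMS, 9.26, 9.83 and 10.20 in MSLW, and 9.24, 10.25 and 12.71 in MS. The LW fetuses lay below all MS and MSLW fetuses. MS exceeded LW by 1.77 ± 0.38 (adjusted p = 0.000309), a 3.42-fold difference, positive in all 8 slides (0.62 to 4.09).

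With age ISG15 moved in the opposite direction to GBP1 and IRF1. At day 110 it read 9.06, 9.91 and 12.36 in LW, 9.03, 9.63 and 10.82 in LWMS and 10.57, 10.91 and 12.29 in MS, and 9.53, 10.15, 10.54, 11.08 and 11.47 in the MSLW fetuses. In LW it rose by 1.75 ± 0.37 (adjusted p = 5.05e-05), with a positive value in 7 of 7 slides, and the average over genotypes was 0.90 ± 0.20 (adjusted p = 5.03e-05). The changes of 0.52 in LWMS, 0.74 in MSLW and 0.57 in MS did not pass. The age change of MS less that of LW was -1.17 ± 0.54 (adjusted p = 0.137), so a larger rise in LW was not established, and MS and LW differed by 0.60 at day 110 (adjusted p = 0.215).

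IFIT3, of a family of proteins that bind viral RNA, was not called in any comparison with any of its 3 probes. Its main probe read 8.60, 8.70 and 8.91 in LW and 8.24, 8.81 and 10.31 in MS at day 90, and 8.06, 8.4 and 10.08 in LW and 8.18, 8.49 and 9.51 in MS at day 110. The crosses lay between 7.68 and 9.32 over both ages, and all groups of an age overlapped. MS and LW differed by 0.22 at day 90, with an interval of -0.24 to 0.68, and by -0.11 at day 110 (-0.57 to 0.35). Without the 4 highest fetuses these were 0.02 and 0.10, so that the sign at day 110 was not settled.

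MX2, the neighbour of MX1 on the same chromosome and also a dynamin-like antiviral GTPase, was not called between the breeds. Its main probe read 5.49, 6.24 and 6.83 in LW and 5.49, 6.50 and 7.98 in MS at day 90, and 5.63, 6.44 and 8.28 in LW and 6.82, 6.95 and 8.42 in MS at day 110, and the breeds overlapped at both ages. The difference of MS from LW at day 90 was 0.32, with an interval of -0.28 to 0.92. The average age change of its main probe was 0.48 ± 0.16 (adjusted p = 0.00566), and its other probes did not pass. That call was lost without MSLW replicate 2 or 4 or MS replicate 4 of day 110, at 0.42 to 0.44, and with normexp its size was 0.29 and still passed.

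**Figure D3:**
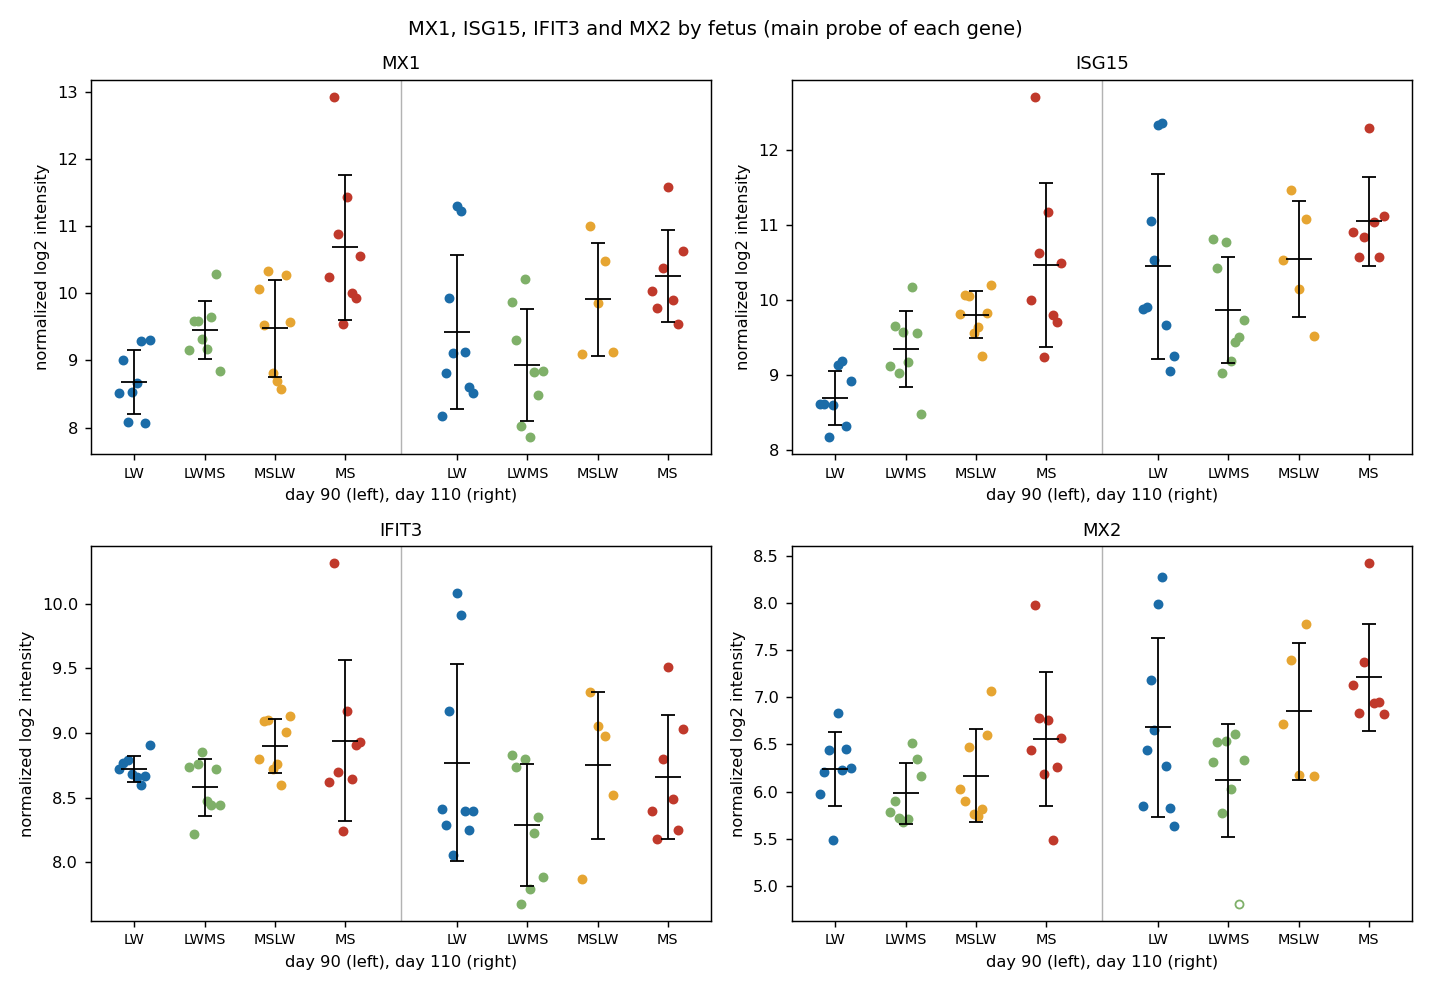
Normalized log2 intensity of MX1, ISG15, IFIT3 and MX2 (main probes) in each fetus by genotype and gestational day, with bars for the mean ± SD. MS replicate 2 of day 90 and MS replicate 4 of day 110 lie at the top of their groups in all 4 panels.

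These 4 genes rose and fell together from fetus to fetus within the groups. MS replicate 2 of day 90 was the highest of its group for all 4 (MX1 12.93, ISG15 12.71, IFIT3 10.31 and MX2 7.98), and so was MS replicate 4 of day 110 (11.58, 12.29, 9.51 and 8.42). In LW at day 110 the highest fetus was replicate 5 for MX1 and IFIT3 and replicate 6 for ISG15 and MX2. After removal of group and slide means, all 6 pairs among them correlated at day 90 (Pearson r 0.65 to 0.89, n = 32) and at day 110 (0.70 to 0.95, n = 29). MX1 and ISG15 were the closest pair, with r = 0.89 and Spearman rho = 0.87 at day 90, and r = 0.95 and rho = 0.90 at day 110 (permutation test, 2-sided, p = 1e-05 in each case, the smallest that the resamples can give, adjusted p = 6.22e-05).

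Without the 2 fetuses farthest from the median the r of the 6 pairs were 0.48 to 0.83 at day 90 and 0.61 to 0.93 at day 110. GBP1 joined this set more loosely, with r of 0.51 to 0.59 at day 90 and 0.52 to 0.69 at day 110, and 0.36 to 0.57 and 0.50 to 0.67 without the 2 farthest fetuses. In all, 56 relations were computed (28 pairs at each age), and at an adjusted p under 1% for Pearson's r the same 10 pairs passed at both ages, namely all pairs of GBP1, MX1, MX2, ISG15 and IFIT3. By Spearman's rho the GBP1 pairs with MX1, ISG15 and IFIT3 did not pass at day 90 (adjusted p = 0.0152, 0.122 and 0.04). Without slide centring 6 pairs passed at day 90 and 9 at day 110. The pairs of GBP1 with MX1, MX2, ISG15 and IFIT3 then failed at day 90 (r 0.25 to 0.44, adjusted permutation p 0.0375 to 0.396). At day 110 the pair of GBP1 and MX2 failed (r = 0.53, adjusted p = 0.012). The place of GBP1 in the set at day 90 thus depended on slide centring. No pair with IRF1 or GBP2 passed, although IRF1 and GBP1 shared the breed difference of day 90 (their r was -0.01 at day 90 and 0.28 at day 110).

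**Figure D4:**
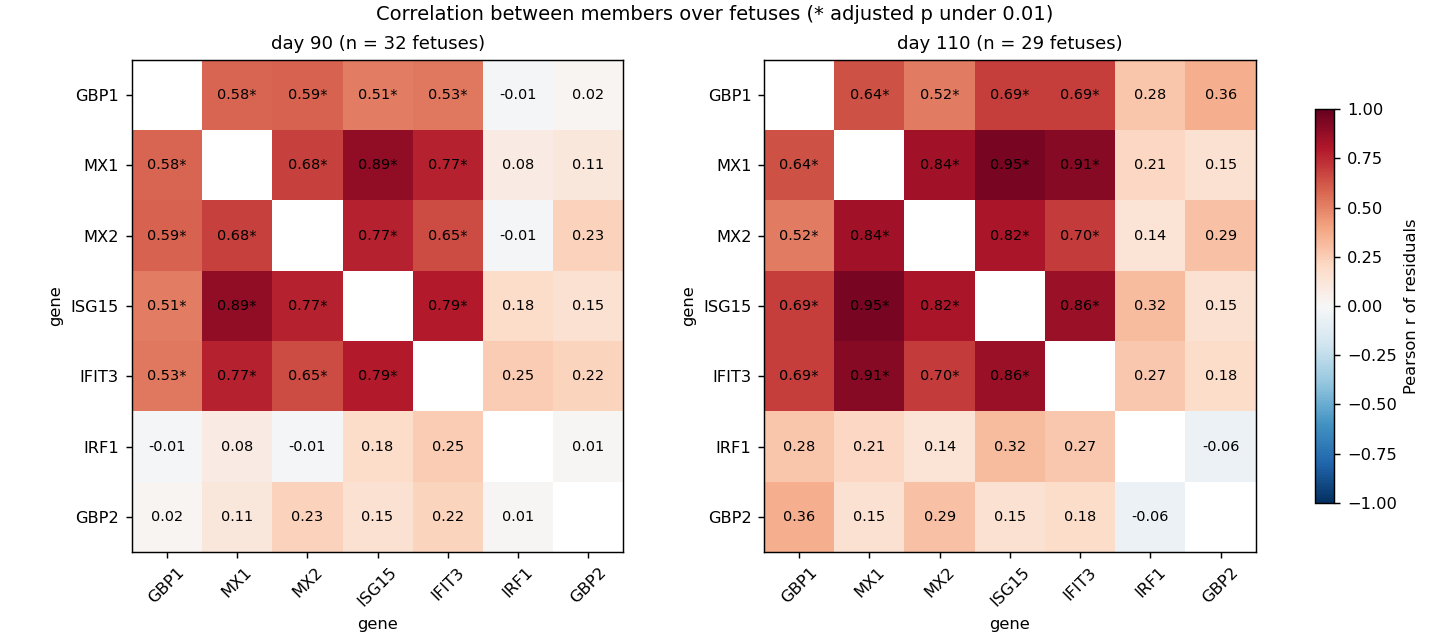
Pearson r between the main probes of 7 members over fetuses of day 90 (n = 32) and day 110 (n = 29) after removal of group and slide means, from blue (-1) to red (1), with an asterisk where the adjusted p was under 0.01. The 10 pairs of GBP1, MX1, MX2, ISG15 and IFIT3 carry the asterisk at both ages, and those with IRF1 or GBP2 do not.

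The mean of the leukocyte markers correlated with none of the 8 members at either age (16 relations, r between -0.32 and 0.28, lowest adjusted permutation p of 0.693 for r and 0.576 for rho). The genes outside the set whose residuals most resembled MX1 were IFI6 (r = 0.933) and XAF1 (0.891), and these were also the closest to ISG15 (0.933 and 0.915). For MX2 they were XAF1 (0.84), IFIT1 (0.813) and USP18 (0.809), and for IFIT3 the genes named HEPACAM2 (0.868) and LOC733579 (0.862). IRF1 and GBP2 had other neighbours: SOX18 came closest to IRF1 (0.699) and XPO1 to GBP2 (0.605). These r are over 61 arrays that share slides and normalization, and are given as a description.

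OAS1, which makes the oligoadenylates that activate RNase L, varied more than any other member, and in a different way. The fetuses fell into those with a clear signal and those without. At day 90 the main probe was well above background in 3 of 8 LW, 6 of 8 LWMS, 6 of 8 MSLW and 8 of 8 MS fetuses, and at day 110 in 6 of 9, 6 of 8, 4 of 5 and 6 of 7. Where it was, it read between 4.58 and 10.73, and elsewhere between 1.79 and 4.09. The second probe, on another stretch of the transcript, gave the same mark in all but 3 of the 61 fetuses (43 above background with both and 15 with neither).

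Within groups the values of OAS1 thus spanned most of the range. At day 90 the main probe read 1.99, 3.23 and 7.09 in LW, 1.95, 6.86 and 8.32 in LWMS, 3.17, 6.72 and 8.04 in MSLW, and 4.58, 7.44 and 9.07 in MS. At day 110 it read 2.10, 7.07 and 10.73 in LW, 1.79, 7.10 and 8.55 in LWMS, 3.26, 7.85, 7.99, 8.23 and 10.09 in MSLW, and 2.19, 8.50 and 8.98 in MS. Every pair of groups overlapped. The difference of 3.18 ± 1.12 between MS and LW at day 90 did not pass the threshold (adjusted p = 0.036), and OAS1 was called in no comparison.

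**Figure D5:**
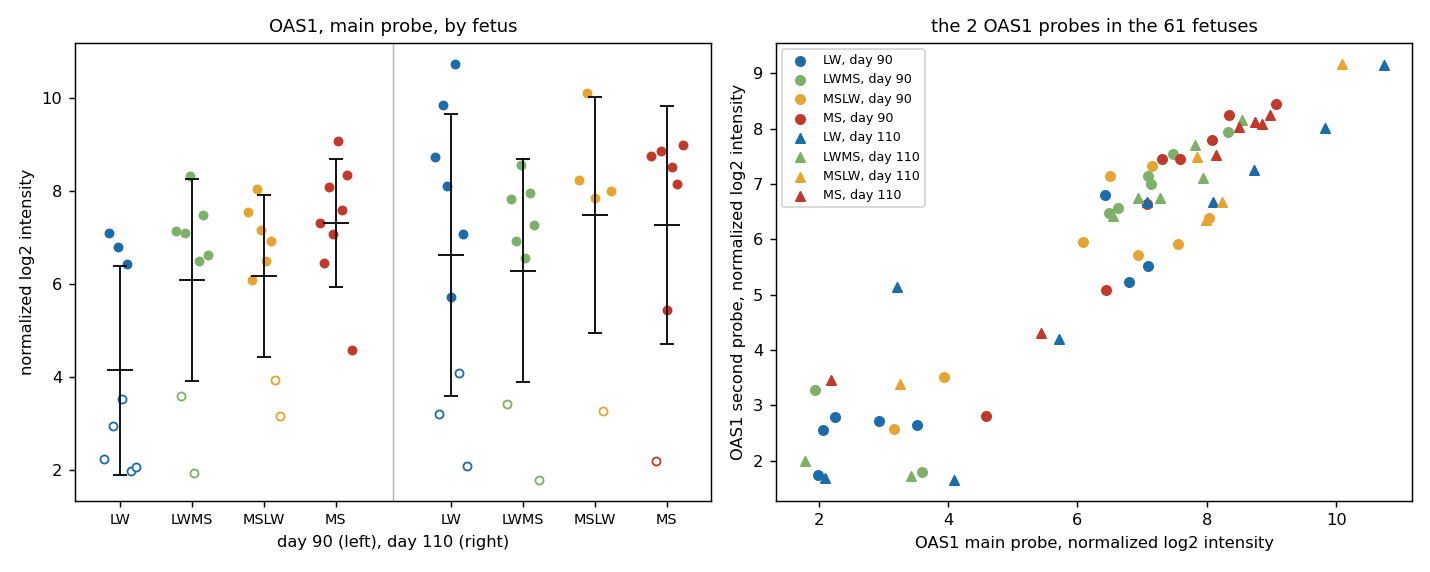
Left, normalized log2 intensity of the main OAS1 probe in each fetus by genotype and day, with open circles for fetuses not well above background and bars for the mean ± SD; right, the main against the second OAS1 probe in the 61 fetuses. The fetuses form a low and a high cloud in which both probes give the same mark in all but 3.

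Over all fetuses OAS1 passed with none of the other 7 members. Its r lay between -0.03 and 0.19 at day 90 and between -0.06 and 0.16 at day 110. Because of the low and high clouds, its correlations were computed again over fetuses with a signal (23 at day 90 and 22 at day 110, 20 relations, chosen after the values had been seen). None of the other 7 members passed: r lay between -0.15 and 0.32 at day 90 and between -0.21 and 0.09 at day 110. Those of day 110 rested on few fetuses, since without the 2 farthest from the OAS1 median r was 0.57 with ISG15, 0.52 with IFIT3 and 0.48 with MX1. The 3 genes that most resembled OAS1 over all fetuses lie on its chromosome in the RefSeq table, OAS2 as its neighbour, RPL6 with 2 and SART3 with 62 protein-coding genes in between. They were chosen for this likeness on the same arrays, so their correlations are a description without a test. Over the fetuses with a signal, OAS2 gave r = 0.59 and rho = 0.61 at day 90 and r = 0.70 and rho = 0.64 at day 110. RPL6 gave r = 0.51 and 0.76, and SART3 gave 0.44 and 0.71. Without the 2 farthest fetuses the r of these 3 genes were 0.40 to 0.48 at day 90 and 0.57 to 0.71 at day 110.

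The rest of the interferon pathway was read from a list of 97 genes by role, of which 76 were on the array and 65 had a kept probe. No interferon ligand was kept among the 4 on the array. Between MS and LW at day 90, 13 of the 65 genes were called (20%, against 12.8% of all kept probes), 10 higher and 3 lower, with a median of 0.20. The antiviral effector IFIT1 (1.23 ± 0.29, adjusted p = 0.00102), the membrane protein IFITM1 (1.13 ± 0.21, adjusted p = 4.14e-05) and the immunoproteasome subunit PSMB8 (1.15 ± 0.33, adjusted p = 0.00749) rose beside GBP3, while OASL and IL18 were each lower by -0.60. By role, 6 of 12 interferon-gamma effectors, 5 of 23 type I effectors, 1 of 5 receptors, 1 of 11 sensors and adaptors and none of 10 kinases and transcription factors were called.

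At day 110, 13 of the 65 were called between MS and LW (20%, against 29%), 7 higher and 6 lower. The immunoproteasome subunit PSMB10 (0.71) and IFITM1 (0.70) were higher in MS, and IL18 (-1.56 ± 0.14, adjusted p = 2.96e-13) and the chemokine CXCL10 (-1.29 ± 0.38, adjusted p = 0.00498) were lower. The age change of MS less that of LW was called for 3 of 65 genes (4.62%, against 5.95%): GBP3 and IL18 (-0.96, adjusted p = 0.00077) with a more negative change in MS, and the adaptor TICAM1 (0.83, adjusted p = 0.000822) with a more positive one.

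With age, 42 of the 65 genes changed on average (64.6%, against 72.3% of all kept probes), 13 higher and 29 lower. IFIT1 and IFIT2, the neighbours of IFIT3 in the RefSeq table, rose by 1.69 ± 0.15 (adjusted p = 1.93e-15) and 1.05 ± 0.07 (adjusted p = 1.1e-19), whereas IFIT3 gave -0.17, with an interval of -0.41 to 0.07. The cytokine IL18 changed the most, from between 9.88 and 11.01 in all day 90 fetuses to between 5.80 and 8.56 at day 110. All 5 receptor genes fell, and of 12 interferon-gamma effectors 7 fell and 2 rose, against 35% of all kept probes called lower and 37.3% higher. The main probes of GBP1, GBP2 and IRF1 fell too. Among type I effectors 6 rose and 5 fell of 23.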

How the data were processed

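Total RNA of 61 fetal longissimus samples was labelled with Cy3 and hybridised to 1-colour Agilent arrays, 1 array per fetus. The authors deposited the scanner intensity of every spot, made with Agilent Feature Extraction 10.10.1.1 and not normalized between arrays, and per the file headers the same files carry the software's marks for controls, non-uniform spots and spots well above background. The authors also deposited a table of quantile-normalized log2 values, used here as an alternative. Its row IDs count the spots in file order, as shown by the comparison with the scanner files (r per array 0.983 to 0.994, median r per probe 0.971, 40388 kept probes in both). Its column medians were 8.09 to 8.1, and per the study's methods log2 transformation followed quality control and quantile normalization. The signal column it started from is not given in the sources used here.

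Here the background-corrected signal was taken, non-uniform spots (4 to 802 per array) were set to missing, and values were quantile normalized and log2 transformed. Only 0 to 2 spots per array were saturated. Probes entered the fit where, in some group, 80% or more of the arrays showed them well above background. The 8 groups were fitted jointly with limma 3.58.1 in R 4.3.3, with moderated 2-sided tests adjusted by Benjamini-Hochberg over 42436 probes at 1%, and 95% intervals of 1.96 SE. A second model held age, dam breed, sire breed and the interactions of each pair. No sow term could be used, since the labels do not give the sow. In a group where no array measured a probe, its difference is an approximate lower bound against the lowest signal well above background, for the background-corrected signal only. The number of fetuses limits the precision, and for dim probes the background does so too.

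All 8 genes and all their probes are reported. The main probe is the kept probe with the highest mean, and pathway genes are named by the largest called changes, up to 4 per direction and comparison. The closest genes are those with the highest correlation of residuals after group and slide means were removed. Members and lists were chosen with earlier results of these data known. Correlations used 1e+05 permutations within each age (Python 3.11.15, numpy 2.4.6, scipy 1.17.1), and figures matplotlib 3.10.9. Tested on simulated data with 200 of 42436 probes changed by 1 (log2), the share found again was 77.5% in the day 110 comparison of MS and LW, 76% in the age change of MS and 58.5% in the MS and LW age changes compared. The simulated noise was independent, without litter or slide effects, and far fewer probes changed than were called in the real data. These shares check the code and do not give the power of the study.

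Alternatives were the median spot signal, the deposited table, normexp with an offset of 50, scaling to the 75th percentile, no filter, only probes above background on all arrays, non-uniform spots kept, the slide as a block, unmoderated variances, LW and MS alone, and each fetus left out in turn. Promoter and protein sequences were not used here, and gene order came from the RefSeq table of Sscrofa11.1 without coordinates.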

Additional observations from a re-analysis of the deposited data

Results flagged for a closer look

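In 5 of the 64 combinations of group and gene, 1 fetus lay apart from the rest of its group by Dixon's test at 95%, which chance flags in about 1 of 20 groups. MS replicate 4 of day 110 was high for MX2 (8.42, the others 6.82 to 7.37) and for ISG15 (12.29, the others 10.57 to 11.12). MS replicate 2 of day 90 was high for IFIT3 (10.31, the others 8.24 to 9.17). LWMS replicate 3 of day 110 was low for GBP1 (4.73, the others 5.48 to 6.06) and LWMS replicate 7 of day 110 was low for MX2 (4.81, the others 5.77 to 6.61). The change from day 90 to day 110 differed between MS and LW for the main probes of GBP1 (-1.64) and IRF1 (-0.73), by the test of the difference itself.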

How the results depend on the processing

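No called difference that was recomputed (main probes and the other GBP1 probes) changed direction. Differences short of the threshold did: without the 4 highest fetuses, MS against LW at day 110 went from -0.11 to 0.10 for IFIT3, and the mean age change of MX1 from 0.05 to -0.05 (main probes). No paired analysis was possible because the labels number each fetus once and give no sow, so that no number is shared between groups. Apart from the omission of single fetuses, 110 recomputed counts stayed within 1.5 times of the reported one and 7 did not. The count of member probes called between MSLW and LWMS at day 110 was 1, and became 2 with 75th percentile scaling, with the slide as a block and without the 4 highest fetuses, and 0 with only probes above background on all arrays, where 17 member probes were tested and the base 2045 probe of GBP1 was absent. That filter also left 1 call of the dam breed by age term, that of the main IRF1 probe. The other 2 reported calls of this term were the base 2914 and base 2045 probes of GBP1. Neither was above background on every array, so the filter removed both and their dam terms were not tested under it. Without the 4 highest fetuses MS against LW at day 110 had 6 calls, 5 of them higher, a description only since the choice itself lowers LW more. Without slide centring 6 member pairs correlated at day 90, none of them with GBP1.

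With each fetus left out in turn, the calls of member probes ranged from 5 to 7 (age change in LW), 6 to 6 (LWMS), 4 to 6 (MSLW), 7 to 8 (MS), 10 to 12 (mean age change), 12 to 14 (MS against LW at day 90), 2 to 3 (at day 110), 4 to 5 (difference in age change), 1 to 2 (MSLW against LWMS at day 110), 3 to 4 (dam term) and 0 to 0 (sire term). The called values of GBP1, MX1 and ISG15 between MS and LW at day 90 kept their side of the threshold throughout, at 1.62 to 1.71, 1.69 to 2.18 and 1.45 to 1.95. With normexp and an offset of 50, the base 818 probe of GBP1 no longer passed for the age change in LW (0.30, adjusted p = 0.0114), nor did the base 2045 probe for the mean age change (-0.12, adjusted p = 0.0316). Without LW replicate 9 of day 110 the former was 0.45 (adjusted p = 0.0102). Where no other reason is given, the cause was not tested. Dim probes such as base 2045 of GBP1 and both OAS1 probes are limited by their closeness to background.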

Other observations

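Genes that sense nucleic acid were on the pathway list by role and are not among the 8 members. Averaged over genotypes, 7 of the 11 measured sensors and adaptors changed with gestational age, 2 higher and 5 lower (limma, adjusted p under 1%). This share was below the 72.3% of all kept probes called, so the values that follow are single genes and no result about the group. MB21D1, the cytosolic DNA sensor cGAS, fell by 1.79 (SE 0.07, adjusted p = 8.44e-30) and the endosomal RNA receptor TLR7 fell by 1.73 (SE 0.20, adjusted p = 1.08e-11). The adaptor TICAM1 rose by 0.62 (SE 0.06, adjusted p = 3.58e-13). Among the effectors, the thiol reductase IFI30 fell by 1.57 (SE 0.09, adjusted p = 2.35e-22) and the dNTP hydrolase SAMHD1 rose by 0.55 (SE 0.04, adjusted p = 1.2e-19). Over the same interval all 5 fibroblast markers, 4 of 6 endothelial markers and 4 of 8 leukocyte markers fell, whereas the endothelial VWF and the leukocyte LYZ rose, and their part in these changes was not tested.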
